A study of Mus musculus with 6 samples.

Results

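Molecular chaperones and the genes of the unfolded protein response were examined in epidermal cells of newborn mouse dorsal skin. The 34 genes were taken by symbol from the 24014 genes of each count table. They comprise 15 genes of the cytosol and nucleus, 3 of mitochondria and 16 of the endoplasmic reticulum, among which the regulators of endoplasmic reticulum stress were counted. All 34 were present and all passed the filter on low counts. RNA was sequenced from 6 libraries of wild type skin at postnatal day 2. In 3 of them a suction blister, typically 3 mm in diameter, had been raised and was healing, and 3 came from control skin. Both groups were detached in 0.25% trypsin overnight in the cold and minced, and the suspension went through a 70 µm filter. The cells of each library are therefore whatever came away with the epidermis. The labels do not say whether libraries of one group are separate animals, and p-values measure only the spread between these libraries.

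Chaperones bind unfolded proteins and help them reach their final form. In the cytosol the Hsp70 and Hsp90 families do this with J-domain cochaperones, and heat shock factor 1 (Hsf1) induces many of them when proteins misfold. In the endoplasmic reticulum, BiP (Hspa5), Grp94 (Hsp90b1), the lectins calreticulin and calnexin, and the protein disulfide isomerases fold the proteins that a cell secretes or puts into its membranes. The unfolded protein response, through the branches of Atf6, Xbp1 and Atf4, raises these genes when folding falls behind. In mitochondria, mortalin (Hspa9) and the chaperonin pair Hsp60 (Hspd1) and Hsp10 (Hspe1) fold imported proteins. Keratinocytes make large amounts of adhesion proteins, matrix proteins and keratins and so use all of these systems.

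Promoter elements known from the heat shock and unfolded protein responses are shown because several members of one compartment were called in the same direction. Promoters were taken from RefSeq (GRCm38.p6), as 250 bases before to 50 bases after each start, and 28 of the 34 genes had an entry. The endoplasmic reticulum stress element was searched on both strands as CCAAT, 9 bases of any kind and CCACG. A form with a longer spacer was not searched, so a gene without a match may still hold that form. It was found in 6 of the 15 endoplasmic reticulum genes with an entry (40%) against 37 of 27025 genes in the table (0.137%). All 6 are folding genes, namely Hspa5, Hsp90b1, Dnajc3, Pdia6, Calr and Canx. The list was made of genes of the response from which the element is known, so an excess over all genes was likely from the outset. In the sites below, capitals mark the element, with 5 bases on each side, 5′ to 3′ on the strand of the gene.
Hspa5: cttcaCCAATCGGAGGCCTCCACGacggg
Hsp90b1, distal: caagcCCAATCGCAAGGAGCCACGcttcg
Hsp90b1, proximal: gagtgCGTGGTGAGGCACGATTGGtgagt
Dnajc3: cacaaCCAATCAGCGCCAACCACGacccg
Pdia6: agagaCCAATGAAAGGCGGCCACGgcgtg
Calr: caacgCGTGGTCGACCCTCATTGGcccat
Canx: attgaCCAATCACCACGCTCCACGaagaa
These windows lie at chr2:34772020-34772048 (plus strand), chr10:86705633-86705661 and chr10:86705528-86705556 (minus), chr14:118937822-118937850 (plus), chr12:17266486-17266514 (plus), chr8:84847070-84847098 (minus) and chr11:50325795-50325823 (minus), in the same order. The proximal Hsp90b1 site and the Calr site run in the opposite direction to the gene. The Hspa5 window also falls in a GENCODE exon of Hspa5, and the others lie in no annotated exon.

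The heat shock element was searched as 3 alternating units of GAA and TTC with 2 bases between neighbours, on both strands. It was found in Hspd1, Hspe1 and Hsph1, and in 179 of the 27025 genes (0.662%). Hspd1 and Hspe1 are neighbours that are read in opposite directions, and the element between them is one and the same, at chr1:55088054-55088081, which is also within an annotated exon of Hspd1. It is shown on the strand of each gene, with the units and their spacers in capitals.
Hspd1: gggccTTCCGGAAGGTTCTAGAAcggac
Hspe1: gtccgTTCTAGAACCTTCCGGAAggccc
The Hsph1 match lies after the start of the gene. A shorter form of 2 units, GAANNTTC or TTCNNGAA, was held by 8 of the 11 cytosolic genes with an entry (72.7%), by 0 of 15 endoplasmic reticulum genes and by 17% of all genes. The stretch around it was letter for letter the same in the near-identical neighbours Hspa1a (chr17:34972243-34972270) and Hspa1b (chr17:34959325-34959352), both on the minus strand, with the 2 units in capitals.
Hspa1a: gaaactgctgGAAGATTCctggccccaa
Hspa1b: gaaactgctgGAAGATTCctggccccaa
The unfolded protein response element TGACGTGG was in 0 of the 28 genes and the ATF4 and CHOP composite TGATGNAAN in 1, Herpud1, against 0.714% and 4.5% of all genes. The cytosolic genes were likewise listed as heat shock genes, so an excess of heat shock elements among them was likely from the outset. A match describes letters in a window and no binding was measured.

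Folding enzymes of the endoplasmic reticulum and the mitochondrial chaperones rose in blister libraries, while most cytosolic heat shock genes and the stress regulators did not pass the test. Of the 34 genes, 16 were called higher and 0 lower when p-values of the edgeR quasi-likelihood fit were adjusted (Benjamini-Hochberg) over 14028 genes and read at 0.05. Of all genes tested, 21.3% were called, 9.74% higher and 11.6% lower. The called genes were 1.37-fold to 1.76-fold higher. By compartment, 10 of 16 endoplasmic reticulum genes, 3 of 3 mitochondrial genes and 3 of 15 cytosolic genes rose. The median log2 fold change was 0.50, 0.71 and 0.22 in these groups, beside 0.0019 over all genes tested. Whether the compartments differ from each other in their change was not tested. Every blister library lay above every control in 11 of 16, 3 of 3 and 7 of 15 of these genes, against 21.4% of all genes tested. At an unadjusted p under 0.05, 20 of the 34 were higher and 2 lower, beside 2669 and 2808 of the 14028 genes tested. Of the 34 genes, DESeq2 and limma-voom also called 0 lower. Genes as abundant as these were called higher more often in general. Among the 4727 genes that averaged 50 CPM (counts scaled to a common library total with TMM factors) or more, 16.9% were called higher, against 14 of the 29 members at that level. In 21 of the 34 genes every blister library lay above every control library, and in 3 every one lay below, against 21.4% and 23.2% of all genes tested. In bulk RNA, fewer cells of a type and less RNA per cell cannot be told apart.

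**Figure D1:**
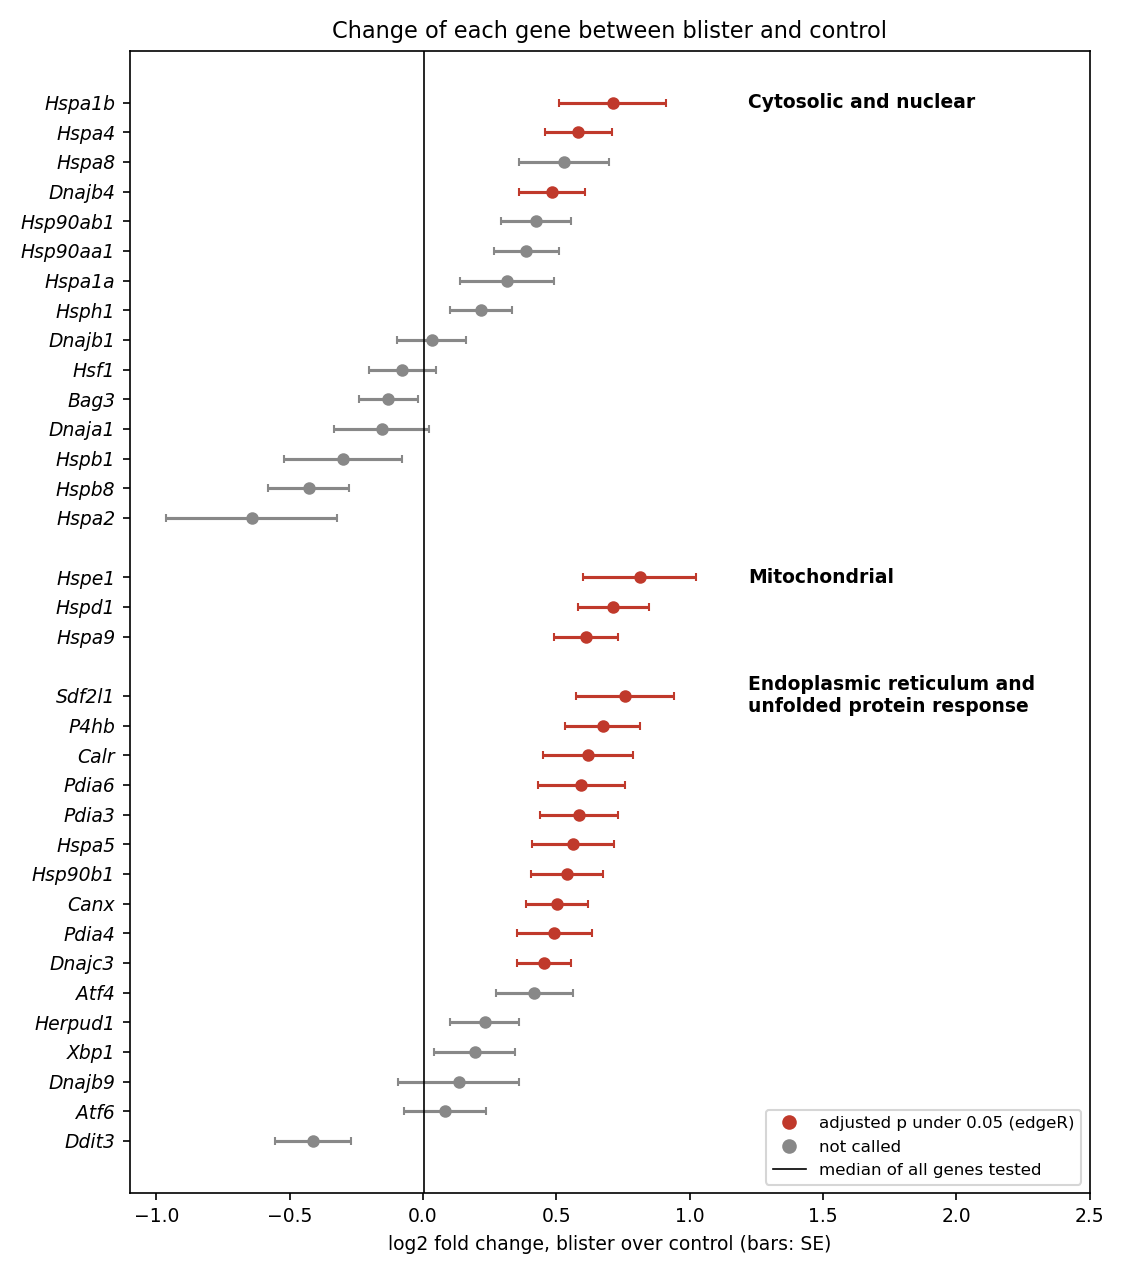
log2 fold change of blister over control (x axis, edgeR) for each of the 34 genes, grouped by compartment, with bars for the SE and a line at the median of all genes tested. The 16 red points are called higher, among them all 3 mitochondrial genes, and no gene is called lower.

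The calls depended on which libraries were in the fit. Leaving out 1 library at a time put the number called higher at between 0 and 18 of 34, being 0 without control 1, 0 without control 2, 1 (Hspd1) without blister 1, 1 (Hspd1) without control 3, 7 without blister 2 and 18 without blister 3. Calls over all genes moved as well, from 1367 higher with all libraries to 306, 476, 534, 541, 1032 and 1998 in the same order. Without both blister 3 and control 3, a setting chosen after the data were seen, 15 of the 34 were called higher. Fold changes moved less. Over the 6 fits that left out 1 library, the log2 fold change of each called gene stayed between 0.41 and 0.996. The largest adjusted p (edgeR) was 0.136.

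Scaling and other cell types moved with the result. With library size alone 2 genes were called higher and 2 lower, a setting that shifted the median of all genes down by 0.25 (log2), and with upper-quartile scaling 11 were higher and 1 lower. A scaling factor moves all genes by nearly the same amount, so distances from the median of all genes stay nearly fixed. They were 0.50 for the endoplasmic reticulum and 0.71 for the mitochondrial median under each of these scalings, which is no check on the calls. A share of raw counts uses library size alone, as the first of these settings did, and follows the most abundant genes of a group. By this measure, mitochondrial genes held 0.0953%, 0.118% and 0.0941% of the blister libraries against 0.0804%, 0.0750% and 0.0751% of the controls. The endoplasmic reticulum genes held 0.537%, 0.593% and 0.512% against 0.446%, 0.475% and 0.418%, and the groups did not overlap in either share. Cytosolic genes held 0.465%, 0.519% and 0.474% against 0.456%, 0.474% and 0.427%, where the groups overlapped.

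Marker lists show what else differed between the libraries. Summed over 8 genes, neutrophil markers ranged from 304 to 996 CPM in blister and from 29.9 to 38.1 CPM in control libraries. Hair follicle markers (8 genes) ranged from 155 to 659 against 1833 to 3184 CPM, melanocyte markers (5 genes) from 306 to 496 against 782 to 922 CPM, and keratinocyte markers (7 genes) from 106278 to 197155 against 63397 to 88625 CPM. Dermal fibroblast markers (8 genes) lay between 582 and 1381 CPM in blister and between 930 and 7157 CPM in control libraries, with the highest sum in control 3. Control 3 also held 93.5 CPM of skeletal muscle markers (5 genes), where each other library held at most 1.65 CPM. Of the 8 dermal genes 7 had a negative log2 fold change, and 3 were called lower. The other, Postn, named after its values were seen, was at 599, 544 and 426 CPM in the blister libraries (log2 fold change 0.017). It made up most of the dermal sum in blister 1 and 3. Endothelial markers (4 genes) were at 3.30 to 7.85 against 8.52 to 58.1 CPM, and macrophage and Langerhans cell markers (8 genes) at 119 to 228 against 135 to 192 CPM. The most abundant tested genes of these lists were S100a9, Krt71, Dct, Krt1, Col3a1, Pecam1 and Csf1r, for neutrophil, follicle, melanocyte, keratinocyte, dermal, endothelial and macrophage lists. A sum follows its most abundant genes, and genes of a list did not all move alike. Of the 7 keratinocyte genes 4 were called higher. Krt1, Krt10 and Trp63, named after their values were seen, overlapped between the groups and were not called. Trp63 was at 407 ± 49.6 CPM in blister and 384 ± 10.0 CPM in control libraries. Of the 8 macrophage and Langerhans cell genes 1 was called higher, and 5 had a negative log2 fold change. No marker was at 0 in all libraries. Plasma cell and B cell markers, of cells rich in endoplasmic reticulum, summed to at most 1.15 CPM in any library (4 genes). With the mean dermal marker level as a covariate, edgeR called 0 of the 34 genes, and 440 of all 14028 genes, while the endoplasmic reticulum and mitochondrial medians were 0.44 and 0.75 and the cytosolic median 0.019. The part of the neutrophil and follicle cells in the result was not tested.

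Sex-linked RNA was unbalanced too. Xist, which female cells transcribe, reached 838 and 879 CPM in the first and second blister libraries but 8.49 CPM in blister 3, and 1409 CPM in control 1 but 16.9 and 0.512 CPM in the other controls. With log2 Xist as a covariate, edgeR called 5 of the 34 genes higher, and 694 of all genes in place of 1367. The median log2 fold change of the 34 was then 0.41, against 0.44 without the covariate, and that of the endoplasmic reticulum genes 0.47 against 0.50. In all 16 called genes every blister library lay above every control, so a split by Xist could only show them higher. Their log2 differences were 0.46 to 0.86 within the libraries high in Xist (blister 1 and 2 against control 1). Within those low in it they were 0.29 to 0.58 (blister 3 against control 2 and 3). These comparisons are too small for a test.

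The 2 large chaperones of the endoplasmic reticulum rose together. Hspa5 (BiP), the Hsp70 of this compartment and the sensor-bound brake on the unfolded protein response, had values of 785, 820.3 and 630.1 CPM in the blister libraries, in order of replicate number as throughout, against 492, 565 and 459 CPM in controls. Each blister library was above each control, with blister 3 nearest to them. The means were 745 ± 101 and 505 ± 54.0 CPM (SD, n = 3 each). On the log2 scale the rise was 0.56 ± 0.15 (SE; edgeR adjusted p = 0.0402). Hsp90b1 (Grp94), the Hsp90 of the compartment and a folder of integrins and Toll-like receptors, was at 706, 786 and 701 CPM in blister against 484, 566 and 459 CPM in control libraries. Its groups did not overlap either (log2 fold change 0.54 ± 0.14, edgeR adjusted p = 0.0315).

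The J-domain protein Dnajc3 and the BiP partner Sdf2l1 rose, and Dnajb9 did not pass the test. Dnajc3 (p58IPK), which also inhibits the eIF2α kinases, was at 107, 105 and 99.8 CPM in blister against 77.0, 71.8 and 78.9 CPM in control libraries. It varied little within either group, and its change was 0.45 ± 0.10 on the log2 scale (edgeR adjusted p = 0.0219). Sdf2l1 was at 24.9, 28.4 and 20.8 CPM against 14.8, 16.7 and 12.2 CPM, the largest rise of the endoplasmic reticulum genes by fold (1.69-fold, edgeR adjusted p = 0.0284). Dnajb9 (ERdj4), a low-abundance cochaperone and a target of Xbp1, was at 5.23, 4.54 and 5.35 CPM against 4.30, 4.20 and 5.29 CPM, and the groups overlapped.

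All 4 disulfide isomerase genes of the list rose. P4hb, the archetype of the family and a subunit of the collagen prolyl hydroxylase, was at 1072, 926 and 855 CPM in blister against 554, 639 and 596 CPM in control libraries, a rise of 0.67 ± 0.14 on the log2 scale (edgeR adjusted p = 0.0188). Pdia3 (ERp57), which works on glycoproteins bound to the lectins, was at 828, 794 and 665 CPM against 504, 561 and 459 CPM (0.58 ± 0.14, edgeR adjusted p = 0.0304). Pdia6 reached 349, 420.1 and 298 CPM against 229.5, 265 and 213 CPM. Pdia4 (ERp72) reached 239.5, 246 and 196 CPM against 168, 175 and 142 CPM. No blister library of the 4 genes fell within the control range, and blister 3 was the lowest of its group in each. The edgeR adjusted p was 0.0406 for Pdia6 and 0.0446 for Pdia4, and the call of Pdia4 was lost with upper-quartile scaling (0.0719) and with a stricter filter (0.0504, edgeR adjusted p).

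Both lectin chaperones rose. Calr (calreticulin), the soluble one and a calcium store, was at 1128, 1028 and 877 CPM in blister against 664, 761 and 550.1 CPM in control libraries (log2 fold change 0.62 ± 0.17, edgeR adjusted p = 0.0393). Canx (calnexin), its membrane-bound partner, was at 395, 357 and 407 CPM against 274, 282 and 263 CPM (0.50 ± 0.12, edgeR adjusted p = 0.0245). Canx was the only called endoplasmic reticulum gene of the 10 in which blister 3 was the highest of the blister libraries.

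Atf4, Ddit3, Xbp1, Atf6 and Herpud1, regulators and a degradation factor of endoplasmic reticulum stress, did not pass the test. Atf4, whose protein is made when eIF2α is phosphorylated, was at 436, 427 and 327 CPM in blister against 299, 292 and 299.6 CPM in control libraries. The groups did not overlap, and its log2 difference of 0.42 ± 0.14 had an edgeR adjusted p of 0.0738. Of the 6 fits that left out 1 library, 1 called Atf4. Its edgeR adjusted p ran from 0.0173 without blister 3 to 0.190 without control 1. Ddit3 (CHOP), the transcription factor of unresolved stress, was lower in each blister library, at 13.9, 14.5 and 12.7 CPM against 18.0, 18.6 and 18.0 CPM (-0.41 ± 0.14, edgeR adjusted p = 0.0754). Xbp1 was at 168, 127 and 138 CPM against 129, 142 and 108 CPM and Atf6 at 61.3, 47.8 and 66.6 CPM against 50.6, 53.1 and 62.4 CPM, with overlap in both. Herpud1, a degradation factor that stress induces, was at 77.9, 69.5 and 72.1 CPM against 60.4, 71.7 and 55.0 CPM, also with overlap. Gene counts do not tell spliced from unspliced Xbp1, and Atf4 and Atf6 are controlled largely at the protein level, so these values are of total RNA only. Whether the folding genes and the regulators differ from each other in their change was not tested.

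**Figure D2:**
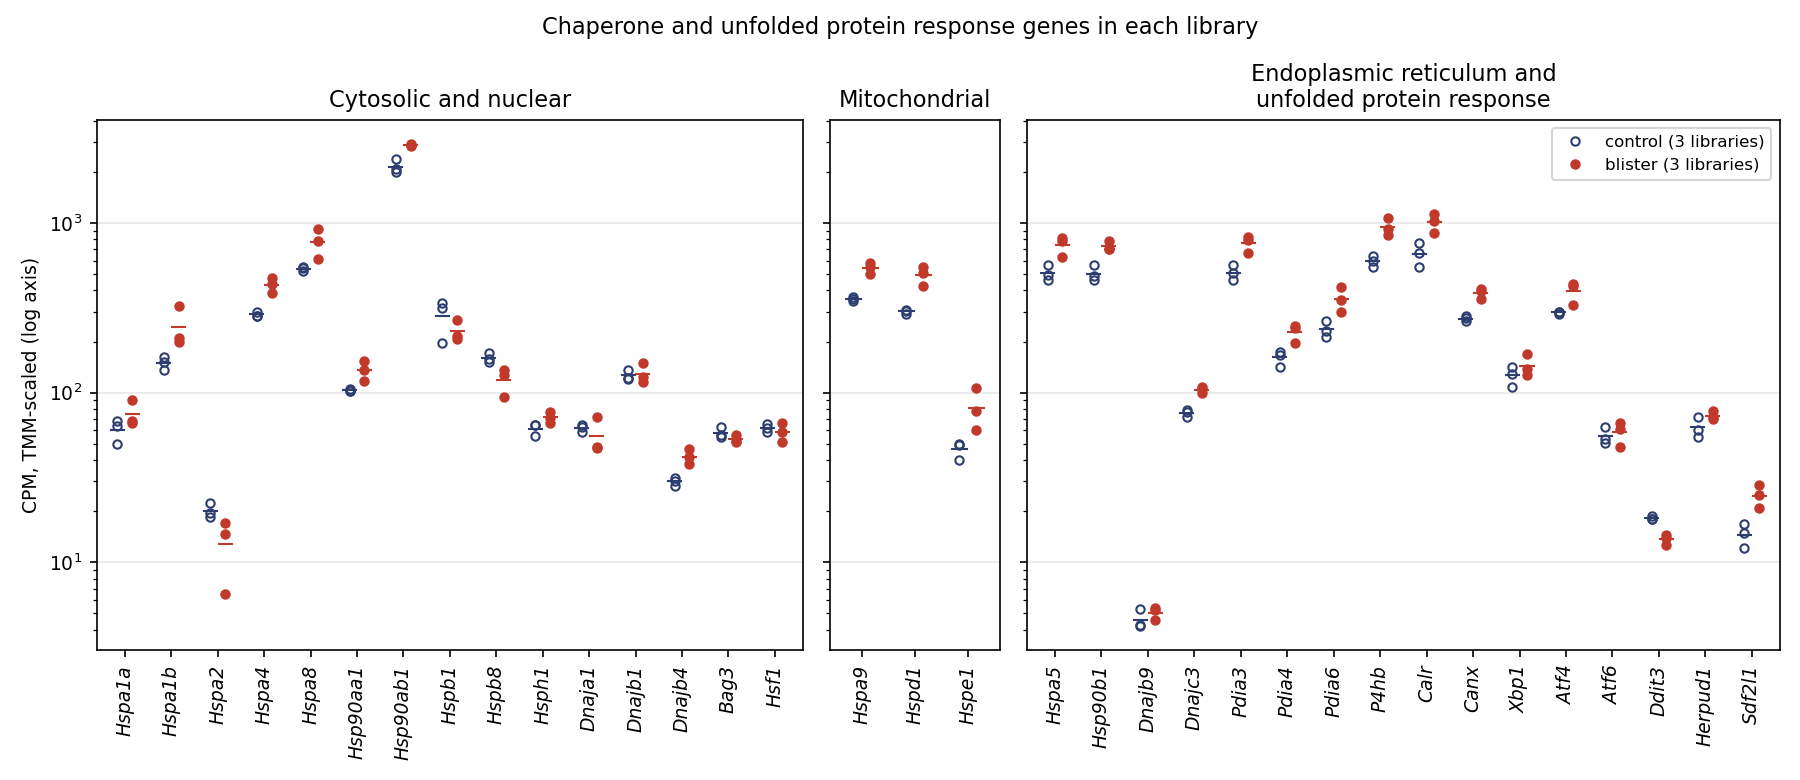
CPM (log axis) of each gene in each library, control as open and blister as filled circles, with a line at each group mean (3 libraries each), by compartment. CPM is not corrected for gene length, so points are to be compared within a gene. For Hspa9, Hspd1 and Hspe1 every blister library lies above every control.

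The mitochondrial chaperones rose in every case. Hspd1 (Hsp60) was at 504, 548 and 427 CPM in blister against 306, 304 and 292 CPM in control libraries. Its rise of 0.71 ± 0.13 on the log2 scale (edgeR adjusted p = 0.0145) had the smallest p of the 34 genes. Every blister library lay above every control, and blister 3 was again nearest to them. Hspe1 (Hsp10), the lid of the Hsp60 barrel, shares its upstream region with Hspd1, as shown above. It was at 77.8, 107 and 60.1 CPM against 50.02, 48.9 and 40.2 CPM, 1.76-fold higher and the largest fold among the 34 (edgeR adjusted p = 0.0348). Hspa9 (mortalin), the Hsp70 that pulls proteins through the inner membrane, was at 552, 582 and 501 CPM against 368, 355 and 348 CPM (0.61 ± 0.12, edgeR adjusted p = 0.0165). The share of stretches of 50 bases that also occur in transcripts of other genes in GENCODE M21 was 44.8% for Hspd1, 44.8% for Hspe1 and 4.1% for Hspa9. The sources used here do not say how such reads were counted.

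In the cytosol, 3 of 15 genes rose, and they are of different kinds. Hspa4 (Apg-2), a nucleotide exchange factor for Hsp70, was at 438, 476 and 384 CPM in blister against 299.5, 284 and 284 CPM in control libraries (log2 fold change 0.58 ± 0.13, edgeR adjusted p = 0.0215). Dnajb4, a J-domain cochaperone, was at 46.4, 41.6 and 37.7 CPM against 28.2, 30.1 and 31.6 CPM (0.48 ± 0.12, edgeR adjusted p = 0.0337). Hspa1b, an inducible Hsp70, was at 325, 200.02 and 209 CPM against 151, 162 and 137 CPM. Its rise of 0.71 ± 0.20 (edgeR adjusted p = 0.0436) leaned on blister 1, and was 0.47 without it. The other inducible Hsp70, Hspa1a, was at 90.9, 67.9 and 66.6 CPM against 63.4, 68.4 and 49.5 CPM, with overlap and no call (edgeR adjusted p = 0.221). The copies shared 66.3% (Hspa1a) and 62.3% (Hspa1b) of their stretches of 50 bases with other genes, each mostly with the other copy, so the split of reads between them is uncertain and their difference was not tested.

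The abundant constitutive chaperones were higher in each blister library, without passing the test. Hspa8 (Hsc70), the housekeeping Hsp70, was at 788, 926 and 615 CPM against 521, 549 and 546 CPM (log2 fold change 0.53 ± 0.17, edgeR adjusted p = 0.0606, or 0.0156 without blister 3). Hsp90ab1, the constitutive Hsp90, was at 2931, 2876 and 2829 CPM against 2068, 2376 and 1996 CPM (edgeR adjusted p = 0.0569), and the inducible Hsp90aa1 at 117, 153 and 135 CPM against 103, 102 and 104 CPM (edgeR adjusted p = 0.0606). Hsph1 (Hsp110) was at 71.3, 76.7 and 66.1 CPM against 64.6, 64.3 and 55.3 CPM (edgeR adjusted p = 0.209). Other genes shared 74.8% of the stretches of Hspa8 and 58.5% of those of Hsp90aa1, but 4.49% of those of Hsp90ab1.

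Dnajb1, Bag3, Dnaja1 and Hsf1 were not called. Dnajb1 (Hsp40) was at 149, 116 and 123 CPM in blister against 122, 137 and 121 CPM in control libraries, a log2 difference of 0.033 ± 0.13. Bag3, the cochaperone of selective autophagy, was at 51.1, 51.6 and 56.2 CPM against 56.5, 62.9 and 54.6 CPM, Dnaja1 at 46.9, 72.3 and 47.7 CPM against 64.3, 62.5 and 58.6 CPM, and Hsf1 at 58.4, 66.6 and 51.2 CPM against 58.9, 65.0 and 61.8 CPM. The groups overlapped in all 4 genes. Their edgeR adjusted p ran from 0.409 for Bag3 to 0.870 for Dnajb1.

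Small heat shock proteins and Hspa2 had lower means in the blister. Hspb8, the partner of Bag3, was at 135, 94.8 and 127 CPM against 172, 158 and 152 CPM, each blister library below each control (log2 difference -0.43 ± 0.15, edgeR adjusted p = 0.0800). Hspb1 (Hsp25), a small chaperone of differentiating keratinocytes, was at 269, 207 and 215 CPM against 316, 338 and 196 CPM, where control 3 lay below the blister libraries. Hspa2, an Hsp70 best known from the testis, was at 17.1, 6.47 and 14.7 CPM against 22.2, 18.6 and 19.5 CPM (-0.64 ± 0.32, edgeR adjusted p = 0.178), with blister 2 lowest.

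**Figure D3:**
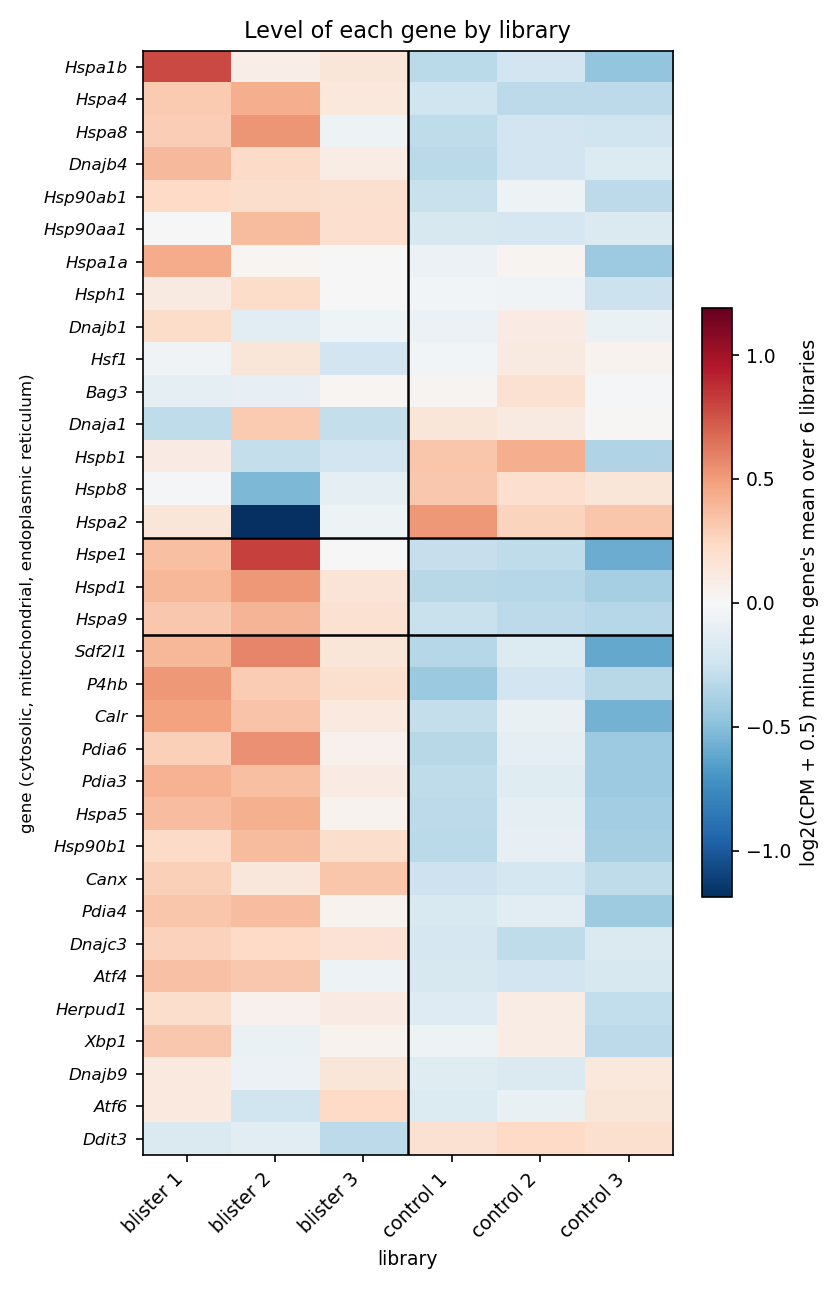
log2(CPM + 0.5) of each gene minus its mean over the 6 libraries, by library (x axis) and gene (y axis, lines between compartments). Blister 3 is the palest of the blister libraries for most called genes, 14 of 16 having their lowest blister value there.

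The libraries of a group were not alike in strength. Among the 16 called genes, blister 3 was the lowest blister library in 14, and control 3 the lowest control library in 12. The median deviation of the endoplasmic reticulum genes from their mean over all libraries was 0.30, 0.31 and 0.11 (log2) in the blister libraries and -0.22, -0.12 and -0.32 in the controls. Blister 3 also lay nearest to the controls on the first principal component of all genes (21.1, beside 58.5 and 57.8 for blister 1 and 2 and -59.1 to -37.9 for the controls).

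Levels differ widely between the genes when set per length. On the scale of CPM per kilobase of annotated exon (GENCODE M21, whose gene models may differ from those counted), Hsp90ab1 had the highest level in control libraries, 716. Hspb1, Calr, P4hb and Pdia3 followed at 275, 229, 208 and 162, then Atf4 at 126. Hspb1 shares 51.6% of its stretches with other genes, which makes its place uncertain. Hspa8, Hsp90b1, Hspa5 and Hspd1 were close together, at 125, 125, 119 and 114. Hspa1b stood at 53.4 and Hspa1a at 20.4. The stress regulator Ddit3 was at 10.6, and Dnajb9 was lowest at 1.80. In blister libraries Calr, P4hb and Pdia3 reached 351, 332 and 243 and passed Hspb1 at 224.

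Other genes of the same pathways were read from the same fit. Of 103 tested, 23 rose (22.3%) and 4 fell, beside 9.74% and 11.6% of all genes tested. The cytosolic chaperonin CCT, an 8-subunit ring that folds actin and tubulin, was also measured. Of its 8 subunit genes 6 rose (75%), with a median log2 fold change of 0.52. All 8 were higher in every blister library than in any control, against 21.4% of all genes tested. Cct6a was at 454, 493 and 372 CPM in blister against 280.4, 273 and 268 CPM in control libraries (edgeR adjusted p = 0.0181), and Cct8 at 434, 467 and 370.1 CPM against 296, 279 and 268 CPM (edgeR adjusted p = 0.0226). The subunits that did not pass, named after their values were seen, were Cct4 (edgeR adjusted p = 0.0588) and Cct7 (0.0633).

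Among 30 other cytosolic chaperones and cochaperones 3 rose (10%) and 2 fell (median 0.23). The share called higher was near the 9.74% of all genes tested. At an unadjusted p under 0.05 (edgeR), 10 of the 30 were higher and 5 lower, beside 2669 and 2808 of the 14028 genes tested. Hspbp1 and Bag1, both nucleotide exchange factors for Hsp70, rose, the former from 56.4 ± 7.25 to 94.3 ± 16.5 CPM and the latter from 183 ± 24.1 to 298 ± 57.6 CPM (edgeR adjusted p = 0.0220 and 0.0309). Ahsa1, an activator of Hsp90 named after its values were seen, was the other that rose (edgeR adjusted p = 0.0400). Hspa12b, an Hsp70 relative of endothelial cells, fell from 12.1 ± 4.20 to 1.32 ± 0.182 CPM (edgeR adjusted p = 0.00448), beside the endothelial markers given above, whose part in it was not tested. Cryab (αB-crystallin) fell from 16.9 ± 0.829 to 8.32 ± 2.72 CPM (edgeR adjusted p = 0.0330). Of 9 other mitochondrial genes 1 was called higher (11.1%), a share also near that of all genes (median of the list 0.38). It was Grpel1, the exchange factor of mortalin (74.4 ± 5.97 to 111 ± 12.4 CPM, edgeR adjusted p = 0.0207). The rest of this list leaned the same way without passing. At an unadjusted p under 0.05 (edgeR), 7 of the 9 were higher and 0 lower. In 6 of the 9 every blister library lay above every control, against 21.4% of all genes tested.

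Among 22 other folding genes of the endoplasmic reticulum 6 rose (27.3%) and 1 fell (median 0.19). Erp44, which retains unfinished proteins by disulfide bonds, rose from 45.2 ± 1.25 to 72.0 ± 11.8 CPM, and Dnajb11 (ERdj3), a cochaperone of BiP, from 93.0 ± 5.91 to 139.6 ± 21.1 CPM (edgeR adjusted p = 0.0181 and 0.0263). The one that fell, Serpinh1 (Hsp47), is the collagen-specific chaperone, from 246 ± 47.8 to 127 ± 33.2 CPM (edgeR adjusted p = 0.0249), beside the dermal fibroblast markers, whose part in it was not tested. Of 11 genes of degradation from the endoplasmic reticulum 1 rose (9.09%), near the 9.74% of all genes tested. It was Vimp (44.98 ± 3.94 to 61.8 ± 6.22 CPM, edgeR adjusted p = 0.0393). At an unadjusted p under 0.05, 4 of these 11 were higher, beside 2669 of the 14028 genes tested.

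Among 10 stress sensors and their processing enzymes 1 rose (10%) and 1 fell, shares near those of all genes tested (9.74% and 11.6%). Ppp1r15b, which directs the removal of phosphate from eIF2α, rose from 99.0 ± 8.35 to 128 ± 3.50 CPM (edgeR adjusted p = 0.0454). Eif2ak4 (GCN2), the sensor of amino acid shortage, fell from 27.0 ± 5.55 to 16.6 ± 2.09 CPM (edgeR adjusted p = 0.0373). Of 13 targets of ATF4 and CHOP 5 rose (38.5%, median 0.55). Asns, asparagine synthetase, rose from 60.1 ± 6.42 to 121 ± 21.6 CPM and Psat1, of serine synthesis, from 191 ± 23.3 to 342 ± 28.6 CPM (edgeR adjusted p = 0.00953 and 0.0105). The others, named after their values were seen, were Shmt2, Phgdh and Trib3, a pseudokinase (13.5 ± 4.60 to 34.1 ± 10.8 CPM). The called targets comprise 4 enzymes of amino acid and one-carbon metabolism and Trib3, which had the largest log2 fold change of the list (1.35). The 8 not called are also named after their values were seen. Atf5 was higher in every blister library than in any control (log2 fold change 0.41, edgeR adjusted p = 0.149). Chac1, Atf3, Sesn2, Ddit4, Nupr1, Cebpb and Cebpg overlapped between the groups.

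**Figure D4:**
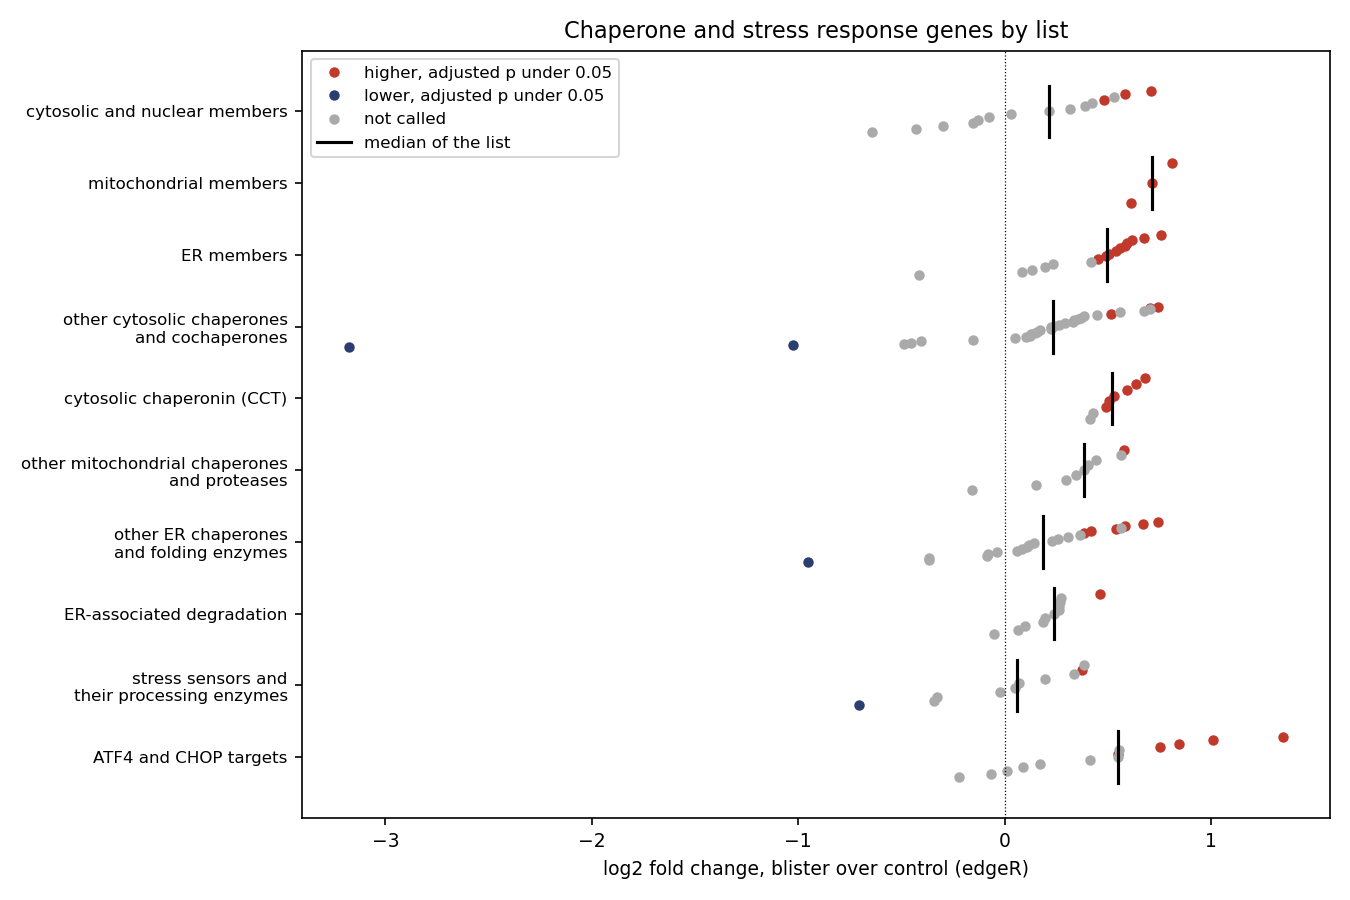
log2 fold change (x axis, edgeR) of each tested gene by list (y axis; ER, endoplasmic reticulum), coloured by call, with a bar at the median of each list. The 8 CCT subunits lie close together at a median of 0.52, while Hspa12b stands alone at -3.18.

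Promoter elements can be set beside the changes. The endoplasmic reticulum stress element was held by 6 of the 10 endoplasmic reticulum genes that rose (60%) and by 0 of the 5 with an entry that were not called. The element was picked with these calls known, for genes listed as part of its response, so this split tests no link between them. Outside the 34 genes, 9 tested genes held the element and 0 of these were called higher, with a median log2 fold change of 0.11. At an unadjusted p under 0.05, 0 of the 9 were higher and 3 lower, beside 2669 and 2808 of the 14028 genes tested. Among tested genes that held the 3-unit heat shock element, without the 34, 4 of 56 were called higher (7.14%) and 5 lower. Of all genes tested, 9.74% were called higher and 11.6% lower.

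**Figure D5:**
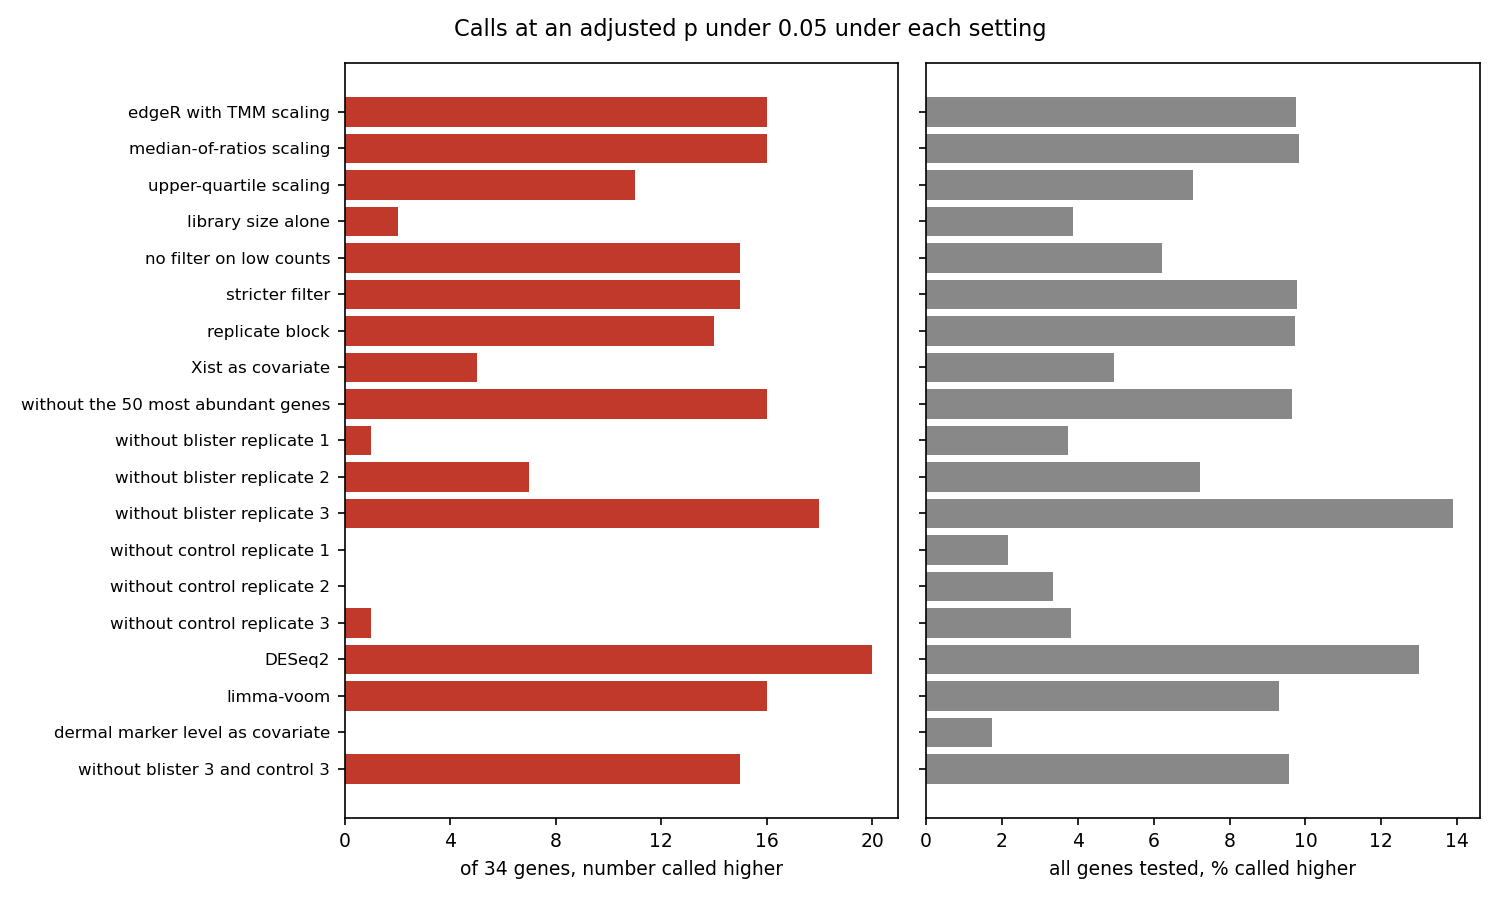
Number of the 34 genes called higher (left) and percentage of all genes tested called higher (right), at an adjusted p under 0.05, under each setting (y axis). Both fall together when control 1 or control 2 is left out, to 0 genes and to 2.15% and 3.35%.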

How the data were processed

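The deposited values are raw read counts per gene symbol, one table of 24014 symbols per library. Per the submitters' processing notes, HISAT2 2.0.0 and featureCounts (version not given in the sources used here) were used and the builds listed are NCBIM37 and mm9. Strand and multi-mapping settings are not given either. Totals ran from 7600567 to 15912863 counts per library. No 2 libraries of a group were copies of each other.

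Genes were tested with edgeR 4.0.16 in R 4.3.3 (quasi-likelihood F-test, TMM scaling, group as the single term, two-sided), after filterByExpr by group (minimum count 10, minimum total 15), which left 14028 genes, and p-values were adjusted by Benjamini-Hochberg over all of them. SE is the log2 fold change divided by the square root of F. CPM values are counts over the TMM-scaled total. DESeq2 1.42.0 and limma 3.58.1 (voom) were alternatives. The procedure was tested on simulated data. The protein comparison planned at the start was not analysed here.

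The members, lists and alternatives were chosen with earlier results of these data known. Named were all 34 members, the 2 called genes with the smallest p in each direction of each other list, and the most abundant tested gene of each marker list; others are said to be chosen after their values were seen. Promoters come from RefSeq and lengths and shared stretches from GENCODE M21, both on GRCm38, another build than the counts, so they are linked by symbol only. Plots were drawn with matplotlib 3.10.9.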

Additional observations from a re-analysis of the deposited data

How the results depend on the processing

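Of 610 member values under the alternatives (18 settings, 2 of them chosen after the data were seen), 459 kept their direction and their side of the threshold, 124 lost a call, 11 gained one and 16 changed sign, 0 of these among the 16 called genes. Each called gene lost its call in at least 2 and at most 5 of 6 leave-one-out fits. In those fits the genes called higher ranged from 0 to 18 for all 34, from 0 to 4 for the cytosolic, 0 to 3 for the mitochondrial and 0 to 11 for the endoplasmic reticulum genes, and from 2 to 38 higher and 1 to 6 lower for the other pathway genes; 0 members were called lower in any of them.

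With library size alone, calls were 2 higher and 2 lower among the 34 (0 and 1 cytosolic, 1 and 1 endoplasmic reticulum, 1 higher mitochondrial) and 5 and 8 among the other pathway genes; over all genes they were 544 higher and 2831 lower, against 1367 and 1626. Upper-quartile scaling gave 6 endoplasmic reticulum genes higher, 1 cytosolic gene lower (1 of the 34) and 15 other pathway genes higher (988 and 1886 over all genes). With Xist as a covariate 5 of the 34 were higher (1 cytosolic, 2 endoplasmic reticulum), with 9 and 1 of the other genes. With the dermal covariate 0 of the 34 were higher, in each compartment 0, with 0 and 1 of the other genes. DESeq2 called 6 cytosolic genes. The causes were not tested.

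The labels do not say whether equal replicate numbers mark pairs. Same-numbered libraries' deviations from their group means correlated at 0.21, -0.26 and 0.039, and differently numbered ones at -0.39 to 0.36. Deviations from a mean of 3 libraries constrain each other, so these values cannot tell whether the numbers mark pairs. The fit with the replicate block called 14 of the 34, with 1 cytosolic gene in place of 3, and 27 and 4 other pathway genes.

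Sign changes, none at a called gene, were as follows on the log2 scale. With library size alone Hsph1 was -0.037, Dnajb1 -0.23, Dnajb9 -0.12, Xbp1 -0.067, Atf6 -0.18 and Herpud1 -0.022. With the dermal covariate Hspa1a was -0.033, Dnaja1 0.00044, Dnajb1 -0.12, Hsf1 0.019 and Xbp1 -0.12. Dnajb1 was -0.032 with upper-quartile scaling. Leaving out 1 library gave -0.065 to 0.11 for Dnajb1, -0.17 to 0.018 for Hsf1 and -0.013 to 0.22 for Atf6, and Hsf1 was 0.016 without blister 3 and control 3.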
